A study of Mus musculus with 42 samples.

Results

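The 9 complement genes followed here are C1qa, C1qb, C1qc, C4b, Cfb, C3, C3ar1, Cd55 and Cd59a, taken by name from the 21674 genes of the expected-count table. The study partially ligated the left carotid artery of mice, which lowered flow on that side and raised it in the contralateral artery, and asked how the inner lining of the vessel (the intima) responds. RNA was flushed from the intima, and by the labels each carotid library was a pool of flushes from 3 to 5 arteries. Untreated mice were wild-type C57BL/6J (Jax) males aged 6 to 7 weeks, killed at 48 h, with 3 pools each of low-flow, high-flow (contralateral) and sham-operated arteries. Mice of that strain were also treated and taken at 48 h, with 2 libraries each of low-flow intima after control IgG, anti-GPIba antibody (which removes platelets), anti-Gr1 antibody (which removes granulocytes), PBS liposomes or clodronate liposomes (which remove macrophages), and of high-flow intima after IgG or PBS liposomes. PBS and clodronate liposomes each had 1 more low-flow library with 100 bp reads. At 7 d the mice were on a C57 background, of both sexes and 2 to 7 months old, and comprised Rbfox2 EC-KO animals and littermate Rbfox2 controls, with 3 low-flow and 2 high-flow libraries of each genotype. Both genotypes carried floxed Rbfox2 alleles and the Rosa26-mTmG reporter, and the EC-KO mice alone carried Cdh5(PAC)-CreERT2, which deletes in endothelium and leaves Rbfox2 in the other cells of a flush. The cultures, 1 library each, were 4 of a single TetOn-SV40 aortic endothelial line grown with SV40 T switched off (untreated, or 48 h after adding 10% plasma, platelets with macrophages, or all of these), and 3 of primary aortic endothelium (sorted Rbfox2 control and EC-KO cells after 7 days, and eGFP+ cells after 5 days). By the study's methods the line and the eGFP+ cells came from Cdh5(PAC)-CreERT2; Rosa26-mTmG mice, with tamoxifen given to those behind the line. The eGFP+ library had 100 bp reads and came from another sequencing run than the other cultures.

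Complement is a cascade of proteins in plasma and tissue that tags surfaces for removal. In the classical pathway C1q, a hexamer of subunits that each hold one chain encoded by C1qa, C1qb and C1qc, binds immune complexes or dying cells, and C4 is then cleaved. Factor B (Cfb) forms the C3-cleaving enzyme of the alternative pathway, both pathways meet at C3, and the fragment C3a signals through the receptor C3ar1. Cd55 takes C3-cleaving enzymes apart on host membranes and Cd59a stops the membrane attack complex there. Tissue macrophages are the best known source of C1q, whereas endothelium is known to carry Cd55 and Cd59 on its surface.

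Libraries held 4064477 to 6794904 assigned counts in the 9 untreated 48 h pools, 12286104 to 19035957 in the 14 treated libraries and 10318685 to 18633538 in the 10 at 7 d, so the low-level genes are measured least well in the untreated pools. Levels are given as FPKM, the count scaled by the gene's effective length and by the library total, which can be compared between genes. Actb took 10.6%, 10.1% and 3.74% of the counts of low-flow pools a, b and c, against 0.699% to 1.10% in the high-flow pools, and the TMM factors that correct library size for such shifts were 0.569, 0.549 and 1.12 in the low-flow pools and 1.12 to 1.27 in the high-flow and sham pools. Scaling by library totals in place of TMM moved the median log2 fold change of all genes by −0.62 for low against high flow and −0.67 for low flow against sham, and each 48 h call or sign of a member that this changed is given with it. The study calls the untreated low-flow and high-flow pools biological triplicates and speaks of biological replicates for the IgG and anti-GPIba arteries. For the other groups p-values measure the spread between libraries whose relation beyond that is not given in the labels. The 11 endothelial marker genes held 0.334% to 1.95% of the counts of every intimal library, and 0.0260% to 0.0326% in the cell line. Rbfox2 stood at 3.27, 5.73 and 2.74 FPKM in low-flow control libraries and 1.09, 0.169 and 0.622 FPKM in low-flow EC-KO libraries, and at 3.66 and 3.84 FPKM against 0.791 and 1.05 FPKM at high flow. It was thus lower in every EC-KO library, as labelled, although edgeR did not call it at either flow (adjusted p = 0.692 and 1).

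Over the 35 intimal libraries the protective membrane genes were always present. Cd59a ranged from 17.6 to 209.9 FPKM and Cd55 from 3.40 to 27.9 FPKM. The C1q chains were low in some libraries and high in others, with C1qb at 0.484 to 223 FPKM, C1qc at 0.516 to 169 FPKM and C1qa at 0.758 to 97.5 FPKM. Cfb (1.47 to 22.8 FPKM), C3 (0.540 to 11.8 FPKM) and C4b (0.140 to 14.3 FPKM) were low, and C3ar1, at 0 to 9.42 FPKM, reached at least 3 counts in 33 of the 35. By group mean Cd59a ranked first of the 9 genes in sham arteries, in every high-flow group and at low flow after PBS liposomes, clodronate or anti-GPIba, and C1qb ranked first in the other low-flow groups with replicates, that is untreated, IgG, anti-Gr1 and both 7 d groups. In untreated low-flow arteries these leading genes overlapped on library totals (62.1 ± 41.4 FPKM for C1qb and 35.6 ± 24.8 FPKM for Cd59a, SD, n = 3) but not on TMM-scaled library sizes (71.0, 65.7 and 97.9 against 44.3, 32.1 and 57.0 FPKM), and C1qb was the higher in each pool. They did not differ beyond their spread after PBS liposomes (33.5 ± 10.9 and 34.3 ± 0.230 FPKM, n = 2) or in 7 d controls (56.0 ± 43.8 and 35.2 ± 20.6 FPKM, n = 3), nor did the next genes at high flow, Cd55 (17.5 to 20.6 FPKM) and C1qb (8.45 to 31.2 FPKM). Cd59a itself, at 199 ± 9.93 FPKM, stood clear of all other members at high flow, and C3ar1 (0.721 ± 0.298 FPKM) was last there but within the spread of C4b (1.03 ± 0.722 FPKM).

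The C1q genes lie side by side on the minus strand of chromosome 4, in the NCBIM37 (mm9) coordinates, with C1qb at chr4:136436044-136442102, C1qc at chr4:136445719-136448980 and C1qa at chr4:136451832-136454718. Chromosome 17 carries C4b (chr17:34865325-34880827), Cfb (chr17:34993319-34999463) and C3 (chr17:57343397-57367559), all on the minus strand. Cd55 is at chr1:132335604-132359321 and C3ar1 at chr6:122797156-122806179, both on the minus strand, and Cd59a at chr2:103935958-103955511 on the plus strand. Near copies that could share reads, C4a, Daf2 (Cd55b) and Cd59b, had group means of at most 0.172, 0.0742 and 0.702 FPKM. C4a was not low beside C4b in every library, at 0.343 FPKM against 0.977 FPKM in high-flow IgG library a and 0.0713 against 0.215 FPKM in untreated low-flow pool b, so C4b values are uncertain where both are low.

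RefSeq promoters (GRCm38.p6, 250 bases before to 50 after the start) were found for 6 of the 9 genes, and those of the genes that differed between flows are given here, since the 2 membrane regulators differed in 1 direction between flows and C1qb and C1qc in the other. The windows were searched on both strands for 5 short motifs, and the motif put in capitals in each was chosen after the matches were counted. Capitals mark CACCC or its reverse GGGTG, the core letters bound by Klf factors, in Cd55 and Cd59a. They mark GGAAG or its reverse CTTCC, the core of Ets sites, in C1qb and C1qc, and TGANTCA, the AP-1 site, in C3ar1. The windows are chr1:130462695-130462994 (minus strand) for Cd55, chr2:104095551-104095850 (plus) for Cd59a, chr4:136886151-136886450 (minus) for C1qb, chr4:136892865-136893164 (minus) for C1qc and chr6:122856108-122856407 (minus) for C3ar1.
Cd55: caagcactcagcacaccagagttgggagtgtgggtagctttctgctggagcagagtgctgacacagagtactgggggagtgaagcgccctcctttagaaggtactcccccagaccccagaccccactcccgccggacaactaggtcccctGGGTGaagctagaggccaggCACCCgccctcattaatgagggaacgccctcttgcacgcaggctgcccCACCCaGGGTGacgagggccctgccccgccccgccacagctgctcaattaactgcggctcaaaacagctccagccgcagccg
Cd59a: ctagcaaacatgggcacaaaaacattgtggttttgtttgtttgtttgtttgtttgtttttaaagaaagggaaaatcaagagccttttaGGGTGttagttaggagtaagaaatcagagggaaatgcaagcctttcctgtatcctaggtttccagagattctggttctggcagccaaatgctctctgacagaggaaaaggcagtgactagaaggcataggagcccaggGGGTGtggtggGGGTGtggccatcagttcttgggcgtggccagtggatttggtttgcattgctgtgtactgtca
C1qb: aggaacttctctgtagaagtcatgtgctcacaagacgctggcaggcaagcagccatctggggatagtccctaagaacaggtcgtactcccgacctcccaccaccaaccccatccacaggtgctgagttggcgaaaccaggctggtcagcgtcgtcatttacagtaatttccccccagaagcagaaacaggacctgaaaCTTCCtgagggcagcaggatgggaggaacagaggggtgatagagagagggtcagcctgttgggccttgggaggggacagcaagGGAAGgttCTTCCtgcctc
C1qc: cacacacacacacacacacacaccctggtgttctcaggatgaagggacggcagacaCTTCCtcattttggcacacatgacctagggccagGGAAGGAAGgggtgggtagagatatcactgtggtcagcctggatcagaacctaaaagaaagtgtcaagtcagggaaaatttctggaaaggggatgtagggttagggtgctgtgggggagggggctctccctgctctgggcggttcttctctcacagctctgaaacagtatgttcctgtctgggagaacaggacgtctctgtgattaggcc
C3ar1: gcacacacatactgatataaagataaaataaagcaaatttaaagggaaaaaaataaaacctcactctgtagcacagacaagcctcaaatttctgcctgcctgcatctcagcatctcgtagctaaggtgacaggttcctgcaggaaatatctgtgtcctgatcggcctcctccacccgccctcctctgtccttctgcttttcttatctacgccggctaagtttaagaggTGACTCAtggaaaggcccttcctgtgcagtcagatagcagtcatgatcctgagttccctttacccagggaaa

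The Cd55 window held 4 matches to CACCC and the Cd59a window 3. Of 32817 promoters of this length 57.52% held at least 1 match and 8.916% at least 3. GGAAG occurred 3 times in each of the C1qb and C1qc windows, with 2 of the C1qc matches overlapping, and 71.41% of promoters held it at least once and 16.02% at least 3 times. TGANTCA occurred once in the C3ar1 window, 22 bases before the start, and in 7.813% of promoters. The other motifs searched were GGGNNTTCC (NF-kB), which matched once in the Cd55 window, at position −60 from the start, and in 5.817% of promoters, and TTNNGNAA (C/EBP), which matched once in the C1qc window and in 40.68% of promoters. GGAAG also matched once in the C3ar1 window. CACCC also matched once in the C1qb and C3ar1 windows and 3 times in that of C1qc. These matches describe the letters alone.

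Low against high flow in untreated mice at 48 h set the ligated artery beside the contralateral one. C1qb and C3ar1 were higher at low flow, by 4.86-fold and 9.89-fold, and C1qa by 3.34-fold, whereas the membrane regulators Cd59a and Cd55 were lower by 3.85-fold and 2.23-fold and Cfb by 2.75-fold. Of the 8 genes tested 3 rose and 3 fell (edgeR quasi-likelihood test, adjusted p under 0.05), where 46.2% of all 11236 genes tested were called (23.6% higher and 22.6% lower), so a call by itself was common in this comparison. So were groups that did not overlap, in 58.05% of all genes on TMM-scaled library sizes. C1qc was not tested because its counts were too low in these pools.

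C1qb, the B chain of C1q, stood at 40.4, 36.1 and 109.8 FPKM in low-flow pools a, b and c, at 8.45, 16.8 and 31.2 FPKM in the high-flow pools and at 24.9, 30.6 and 62.1 FPKM in the sham pools. Every low-flow pool was above every high-flow pool, and pool c was highest by far on library totals, less so on TMM-scaled library sizes (71.0, 65.7 and 97.9 FPKM). Against high flow the log2 fold change was 2.28 ± 0.36 (SE, adjusted p = 4.68e-04 by edgeR).

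C1qa, the A chain, had 3.29, 8.16 and 22.4 FPKM at low flow and 1.50, 5.77 and 6.81 FPKM at high flow. On library totals the groups overlapped, since pool a was below 2 high-flow pools. On TMM-scaled library sizes the low-flow pools were at 5.79, 14.9 and 20.0 FPKM and the high-flow pools at 1.35, 4.87 and 5.74 FPKM, which did not overlap, although the lowest low-flow pool was only just above the highest high-flow pool. The log2 fold change was 1.74 ± 0.51 (SE, adjusted p = 0.0167). This call was lost with library totals in place of TMM (1.25, adjusted p = 0.0735) and without low-flow pool c (1.29, adjusted p = 0.0827).

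C1qc, the C chain, had 1.62, 2.64 and 9.45 FPKM at low flow against 0.516, 1.62 and 1.45 FPKM at high flow and 2.34, 5.41 and 7.43 FPKM in sham arteries. The lowest low-flow pool equalled the highest high-flow pool at this rounding and lay below all sham pools. On TMM-scaled library sizes the low-flow pools were at 2.84, 4.81 and 8.43 FPKM, all above the high-flow pools at 0.462, 1.37 and 1.22 FPKM, and the lowest of them was above 1 sham pool (1.93, 4.24 and 6.32 FPKM).

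C3ar1, the receptor of the C3a fragment, was at 2.89, 2.55 and 9.42 FPKM at low flow and 0.508, 0.593 and 1.06 FPKM at high flow, with 1.71, 2.72 and 4.68 FPKM in sham arteries. All low-flow pools were above all high-flow pools. The log2 fold change was 3.31 ± 0.34 (SE, adjusted p = 2.85e-05), the largest of the 8 tested, and it held with library totals (2.78, adjusted p = 2.11e-05).

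In a flush of mixed cells, fewer cells of a type and less RNA per cell cannot be told apart. The 14 macrophage marker genes together held 0.269% to 0.386% of counts at low flow, 0.00899% to 0.0206% at high flow and 0.0250% to 0.0734% in sham arteries, and 11 of the 13 tested rose at low flow. Their share thus moved with C1qa, C1qb and C3ar1. The 11 endothelial markers moved the other way, at 0.334% to 0.493% at low flow against 0.889% to 1.08% at high flow, with 5 of 11 falling and 2 rising. The neutrophil markers held 0.0250% to 0.0501% at low and 0.000705% to 0.00210% at high flow (7 of 7 tested rose), the smooth muscle markers 0.233% to 0.430% and 0.0524% to 0.0621% (3 of 6 rose), and the fibroblast markers 0.00646% to 0.0412% and 0.0465% to 0.0905% (3 of 7 fell). The fat cell markers held 0.00298% to 0.00703% and 0.0290% to 0.291% (5 of 5 tested fell), and the 1 hepatocyte marker tested, Serpina1d, fell by 8.31 on the log2 scale. The part of any of these in the complement results was not tested.

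Cd59a, the inhibitor of the membrane attack complex, stood at 25.2, 17.6 and 63.9 FPKM at low flow, 209.9, 194 and 192 FPKM at high flow and 161, 195 and 152 FPKM in sham arteries. Every low-flow pool was below every other pool, and low-flow pool c was nearest to them. Against high flow the log2 fold change was −1.94 ± 0.24 (SE, adjusted p = 1.09e-04).

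Cd55, which takes the C3-cleaving enzymes apart, was at 4.07, 3.40 and 9.43 FPKM at low flow, 17.5, 18.9 and 20.6 FPKM at high flow and 19.8, 16.4 and 13.8 FPKM in sham arteries. The low-flow pools again did not reach the others. Against high flow the log2 fold change was −1.16 ± 0.19 (SE, adjusted p = 5.33e-04).

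Cfb, the enzyme of the alternative pathway, was at 1.47, 1.47 and 6.28 FPKM at low flow, 7.68, 11.9 and 17.0 FPKM at high flow and 7.67, 14.8 and 9.07 FPKM in sham arteries. All low-flow pools were below all high-flow and sham pools, with pool c the closest. The log2 fold change was −1.46 ± 0.35 (SE, adjusted p = 0.00591). The calls of C1qb, C3ar1, Cfb, Cd55 and Cd59a against high flow held without any single pool and with library totals.

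C3 and C4b, which the pathways cleave, were not called. C3 had 0.885, 1.35 and 3.06 FPKM at low flow and 1.18, 3.29 and 7.51 FPKM at high flow, overlapping, with a log2 fold change of −0.59 and an interval from −1.58 to 0.39. C4b had 0.140, 0.215 and 0.932 FPKM at low flow and 0.313, 1.03 and 1.76 FPKM at high flow, also overlapping, with −0.74 and an interval from −1.86 to 0.39. These approximate 95% intervals do not set a limit of detection, and changes of any size within them remain possible.

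**Figure D1:**
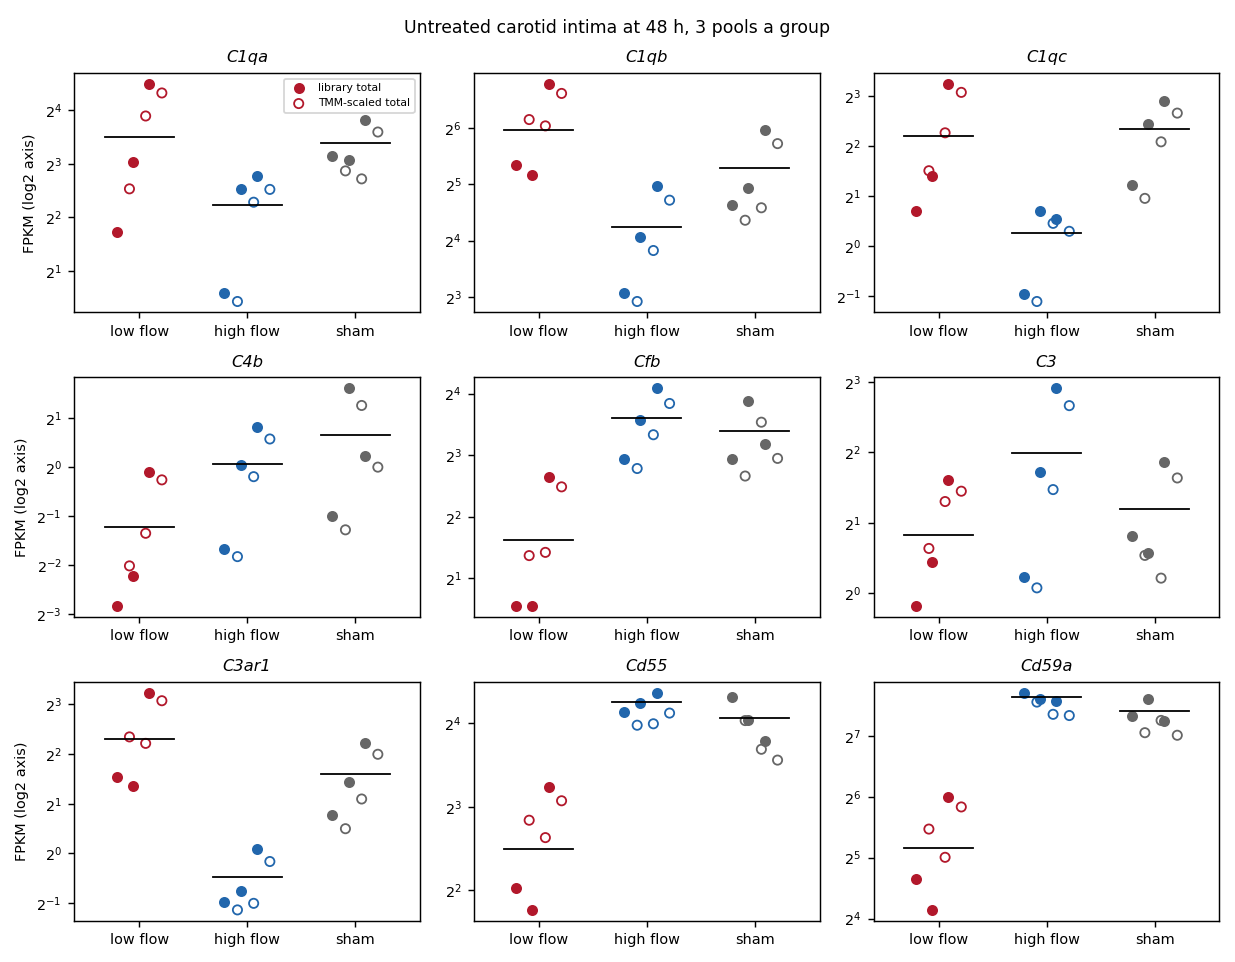
Level of each complement gene in the untreated 48 h pools (y axis, FPKM on a log2 axis) for low-flow, high-flow and sham arteries. Filled points use the library total, open points the TMM-scaled total, and lines are the means of the filled points. The 3 low-flow pools sit above the high-flow pools for C1qb and C3ar1 and below them for Cfb, Cd55 and Cd59a on both scales.

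Low flow was also compared with sham-operated arteries, which were not ligated. Of the 9 genes 2 rose (C1qb and C3ar1) and 3 fell (Cfb, Cd55 and Cd59a), against 40.3% of all genes called (20.6% higher and 19.7% lower), and groups did not overlap for 56.42% of genes. Of the markers tested, 11 of 13 macrophage and 7 of 7 neutrophil markers rose, and 5 of 11 endothelial and 3 of 6 fibroblast markers fell, and their part was not tested. Cd59a was lower by 3.18-fold (log2 −1.67 ± 0.24, SE, adjusted p = 0.00198) and Cd55 by 1.91-fold (log2 −0.93 ± 0.20, SE, adjusted p = 0.00840), and both calls held without any single pool and with library totals. Cfb was lower by 2.31-fold (log2 −1.21 ± 0.35, SE, adjusted p = 0.0257). The Cfb call was lost without low-flow pool a, low-flow pool b or sham pool b, with adjusted p of 0.0930, 0.0885 and 0.0783.

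C1qb was 2.36-fold above sham (log2 1.24 ± 0.34, SE, adjusted p = 0.0216) and C3ar1 2.37-fold (log2 1.25 ± 0.37, SE, adjusted p = 0.0287). Both rest on the scaling, since library totals gave 0.66 (adjusted p = 0.260) for C1qb and 0.70 (adjusted p = 0.288) for C3ar1. C1qb lost its call without low-flow pool a, sham pool a or sham pool b (adjusted p = 0.0530, 0.0733 and 0.0554). C3ar1 lost its call without low-flow pool a, low-flow pool c, sham pool a or sham pool b (adjusted p = 0.0556, 0.0853, 0.0848 and 0.0658). C4b, which had 0.497, 3.04 and 1.17 FPKM in sham pools, was not called with TMM (log2 −1.28 ± 0.66, SE, adjusted p = 0.147) but was with library totals (−1.85, adjusted p = 0.0136). C1qa (0.63), C1qc (0.39) and C3 (0.20) were not called, and the sign of C1qc and C3 turned with library totals (−0.15 and −0.39).

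High flow against sham asked whether the contralateral artery had itself changed. None of the 8 genes tested was called by edgeR, as was 0% of all 11030 genes, and 3 of the 8 had an unadjusted p under 0.05 (868 of all genes did). C3ar1 had the largest difference, with log2 −2.05 ± 0.44 (SE, adjusted p = 0.310), and the 3 high-flow pools lay below the 3 sham pools (12.81% of all genes did not overlap). DESeq2 called this 1 gene (0.585% of all genes, adjusted p = 0.0120), as did edgeR with no filter on low counts (adjusted p = 0.0426). C1qa and C1qb had log2 differences of −1.11 and −1.04, Cd55 and Cd59a of 0.24 and 0.29, and C3, C4b and Cfb of 0.80, −0.54 and 0.27, without passing the adjusted threshold.

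Flow was compared again in treated control mice, with the caution that the treated low-flow and high-flow libraries came from different sequencing runs, so flow and run cannot be told apart. In IgG mice 4 of the 9 genes rose (C1qa, C1qb, C1qc and C3ar1) and 2 fell (Cfb and Cd59a), against 40.5% of all genes called (22.8% higher and 17.7% lower). In PBS-liposome mice 1 rose (C1qb) and 4 fell (C4b, Cfb, Cd55 and Cd59a), against 35% of all genes (19.6% higher and 15.5% lower). The 2 comparisons share no library.

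C1qb had 73.4 and 98.8 FPKM at low flow and 5.86 and 16.9 FPKM at high flow with IgG, and 41.2 and 25.8 against 7.16 and 11.1 FPKM with PBS liposomes. Both low-flow libraries were above both high-flow libraries in each treatment, as groups of 2 often are apart (74.07% of all genes did not overlap with IgG and 75.15% with PBS liposomes). The log2 fold changes were 2.82 ± 0.54 (adjusted p = 0.00301) and 1.99 ± 0.53 (adjusted p = 0.0141).

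C1qa had 31.7 and 28.9 FPKM against 3.21 and 8.69 FPKM with IgG, and 12.8 and 9.09 against 4.46 and 5.07 FPKM with PBS liposomes. The log2 fold changes were 2.25 ± 0.54 (adjusted p = 0.00821) and 1.31 ± 0.53 (adjusted p = 0.0769), so the second missed the threshold while the groups did not overlap. C1qc behaved alike, at 42.9 and 59.0 against 5.63 and 16.5 FPKM with IgG (log2 2.10 ± 0.55, adjusted p = 0.0118) and 24.9 and 14.6 against 8.10 and 9.28 FPKM with PBS liposomes (log2 1.30 ± 0.54, adjusted p = 0.0840). With IgG the C1qa call was lost without high-flow library a (adjusted p = 0.0542) and the C1qc call without high-flow library a or low-flow library b (adjusted p = 0.0746 and 0.0728). With PBS liposomes the C1qb call was lost without high-flow library a or low-flow library a (adjusted p = 0.121 and 0.0825).

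C3ar1 had 5.42 and 3.49 FPKM against 0 and 0.548 FPKM with IgG (log2 3.88 ± 1.04, adjusted p = 0.0129), and 2.59 and 2.88 against 0.209 and 0.803 FPKM with PBS liposomes (log2 2.54 ± 0.97, adjusted p = 0.0612). No high-flow library reached a low-flow one. The macrophage markers held 0.256% to 0.280% of counts at low flow and 0.0160% to 0.0433% at high flow with IgG, and 0.147% to 0.247% against 0.0208% to 0.0291% with PBS liposomes.

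Cd59a had 44.0 and 35.3 FPKM against 74.1 and 80.0 FPKM with IgG (log2 −1.04 ± 0.37, adjusted p = 0.0423) and 34.5 and 34.2 against 98.2 and 63.0 FPKM with PBS liposomes (log2 −1.12 ± 0.37, adjusted p = 0.0354). Cd55 had 11.3 and 10.6 against 11.8 and 18.5 FPKM with IgG (log2 −0.56 ± 0.28, adjusted p = 0.130) and 12.1 and 11.1 against 27.8 and 27.9 FPKM with PBS liposomes (log2 −1.15 ± 0.28, adjusted p = 0.00993). Each low-flow library was below each high-flow library of its treatment for both genes. Cfb had 5.30 and 2.71 against 11.4 and 10.8 FPKM (log2 −1.56 ± 0.50, adjusted p = 0.0282) and 3.18 and 4.47 against 11.3 and 12.8 FPKM (log2 −1.55 ± 0.50, adjusted p = 0.0326), again with no overlap. The endothelial markers held 0.452% to 0.604% of counts at low and 1.92% to 1.95% at high flow with IgG (7 of 11 fell and 2 rose), and 0.407% to 0.421% against 1.08% to 1.50% with PBS liposomes (6 fell and 2 rose). In each treatment 6 of 9 neutrophil and 2 of 7 smooth muscle markers rose, the hepatocyte marker fell, and 3 of 7 fibroblast markers fell with IgG and 2 with PBS liposomes. The part of these in the values of Cd59a, Cd55 and Cfb was not tested.

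C4b was lower at low flow with PBS liposomes, at 0.577 and 0.257 against 1.88 and 0.974 FPKM (log2 −1.67 ± 0.57, adjusted p = 0.0414), and was not called with IgG (1.22 and 0.710 against 0.977 and 1.32 FPKM). C3 was not called in either, at 3.05 and 1.65 against 3.96 and 3.95 FPKM with IgG and 1.37 and 3.09 against 3.28 and 2.23 FPKM with PBS liposomes. Of the calls by flow in treated mice, those of C1qb and C3ar1 with IgG were kept without any single library. With IgG, Cd59a lost its call without any single library (adjusted p = 0.0885 to 0.216) and Cfb without high-flow library a, high-flow library b or low-flow library b (at most 0.206). With PBS liposomes, Cfb lost its call without any single library (at most 0.166), Cd59a without high-flow library a, low-flow library a or low-flow library b (at most 0.265), and C4b and Cd55 without high-flow library a or low-flow library b (at most 0.288 and 0.0760).

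Depletion of blood cells was compared within low flow and within 1 sequencing run. With anti-GPIba against IgG, which asks what platelets contribute, 1 of the 9 genes was called, against 16.5% of all 13401 genes tested (6.05% higher and 10.5% lower), while the groups did not overlap for 73.9% of genes. C4b rose from 1.22 and 0.710 FPKM with IgG to 3.39 and 5.17 FPKM with anti-GPIba, both above both, a log2 fold change of 2.12 ± 0.56 (SE, adjusted p = 0.0339). That call was lost without any single one of the 4 libraries (IgG a 0.0649, IgG b 0.239, anti-GPIba a 0.136 and anti-GPIba b 0.148 as adjusted p).

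C1qb was at 73.4 and 98.8 FPKM with IgG and 25.9 and 32.8 FPKM with anti-GPIba, with no overlap (log2 −1.58 ± 0.51, SE, adjusted p = 0.0536). C3ar1 was at 5.42 and 3.49 against 0.682 and 0.613 FPKM, also with no overlap (log2 −2.81 ± 0.96, SE, adjusted p = 0.0633). Cfb was at 5.30 and 2.71 against 11.7 and 10.3 FPKM (log2 1.43 ± 0.50, SE, adjusted p = 0.0649). All of these lay just outside the threshold. DESeq2, which called 22.1% of all genes here, called all 3 beside C4b (adjusted p = 0.0134 for C1qb, 0.00753 for C3ar1 and 0.0218 for Cfb).

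C1qa (31.7 and 28.9 against 13.2 and 13.8 FPKM, adjusted p = 0.119) was lower and Cd59a (44.0 and 35.3 against 65.6 and 75.2 FPKM, adjusted p = 0.139) higher in both anti-GPIba libraries, without passing. C1qc (−0.83), C3 (0.71) and Cd55 (0.18) had adjusted p of 0.270, 0.431 and 0.671. The macrophage markers held 0.256% to 0.280% of counts with IgG and 0.0259% to 0.0342% with anti-GPIba, and 9 of 14 fell. Fibroblast markers held 0.0276% to 0.0367% and 0.0593% to 0.105%, endothelial markers 0.452% to 0.604% and 1.06% to 1.09% (2 of 11 rose), smooth muscle markers 0.437% to 0.472% and 0.0724% to 0.102% (2 of 7 fell) and neutrophil markers 0.0137% to 0.0389% and 0.000663% to 0.00115% (6 of 9 fell). The part of these shares in the values of the 9 genes was not tested.

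Anti-Gr1 against IgG gave 0 called genes of the 9 and 0% of all genes by edgeR, with 2 of the 9 and 2432 of all genes at an unadjusted p under 0.05. C4b was at 3.52 and 7.43 FPKM with anti-Gr1 (log2 2.54 ± 0.57, SE, adjusted p = 0.243) and Cfb at 13.9 and 11.5 FPKM (log2 1.68 ± 0.50, SE, adjusted p = 0.243), both above both IgG libraries (50.95% of genes did not overlap), and DESeq2 called these 2 (1.07% of all genes, adjusted p = 0.00413 and 0.0486). The C1q chains reached 69.5 and 39.4 FPKM for C1qa, 194 and 81.8 FPKM for C1qb and 114 and 61.0 FPKM for C1qc, with library a above library b in each, and C1qb overlapped the IgG libraries. C3 (0.92), Cd55 (0.24), Cd59a (0.29) and C3ar1 (0.49) had adjusted p of 0.438, 0.662, 0.677 and 0.780. All 9 fold changes were positive, with a median log2 of 0.77 beside 0.00 for all genes. The neutrophil markers, which the antibody should lower, held 0.00200% to 0.00385% of counts against 0.0137% to 0.0389% with IgG, and the macrophage markers 0.125% to 0.151% against 0.256% to 0.280%. The fibroblast markers held 0.0695% to 0.0965% against 0.0276% to 0.0367% and the endothelial markers 0.814% to 0.965% against 0.452% to 0.604%, with none of either list called. The part of these shares in the values of C4b, Cfb and the C1q chains was not tested.

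Anti-GPIba and anti-Gr1 libraries could be compared directly. Here 0 of the 9 genes were called by edgeR (0% of all genes) and 3 by DESeq2 (2.11% of all genes), and an unadjusted p under 0.05 was reached by 4 of the 9 and by 1409 of all genes. C1qb was lower with anti-GPIba by log2 −2.26 ± 0.52 (SE, adjusted p = 0.137), C1qa by −2.04 ± 0.53 (adjusted p = 0.198) and C3ar1 by −3.29 ± 0.98 (adjusted p = 0.255), and these were the 3 that DESeq2 called (adjusted p = 0.00138, 0.00834 and 0.00853). C4b (−0.42) and Cfb (−0.25), which both stood above IgG under either antibody, differed little between the antibodies, with intervals from −1.47 to 0.63 and −1.19 to 0.70. C1qc (−1.60), C3 (−0.21), Cd55 (−0.06) and Cd59a (0.51) had adjusted p of 0.313, 0.933, 0.963 and 0.646. These comparisons share the anti-GPIba and anti-Gr1 libraries with the ones against IgG.

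Clodronate against PBS liposomes, which asks what macrophages contribute, gave 0 called genes of the 9 by edgeR, against 0.119% of all genes, with 4 of the 9 and 2002 of all genes at an unadjusted p under 0.05 and groups of 50.62% of genes not overlapping. C1qb was at 41.2 and 25.8 FPKM with PBS and 16.3 and 10.4 FPKM with clodronate (log2 −1.44 ± 0.51, SE, adjusted p = 0.267). C1qa was at 12.8 and 9.09 against 7.35 and 2.43 FPKM (log2 −1.28 ± 0.53, SE, adjusted p = 0.305), and C1qc at 24.9 and 14.6 against 12.8 and 5.31 FPKM (log2 −1.24 ± 0.54, SE, adjusted p = 0.320). For all 3 chains both clodronate libraries were below both PBS libraries. C3ar1 showed the same order, at 2.59 and 2.88 against 0.531 and 1.03 FPKM (log2 −1.90 ± 0.94, SE, adjusted p = 0.364).

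C4b was higher in both clodronate libraries, at 2.01 and 1.21 FPKM against 0.577 and 0.257 FPKM (log2 1.84 ± 0.57, SE, adjusted p = 0.226), and it was the 1 gene DESeq2 called (2.8% of all genes, adjusted p = 0.0384). The macrophage markers held 0.147% to 0.247% of counts with PBS and 0.0293% to 0.0299% with clodronate, and 2 of 14 fell. The endothelial markers held 0.407% to 0.421% with PBS and 0.627% to 0.967% with clodronate and the neutrophil markers 0.0115% to 0.0342% and 0.00306% to 0.00398%, with none of either list called, and the part of these shares was not tested. The other members had log2 differences of −0.85 (C3), 0.67 (Cfb), 0.10 (Cd55) and 0.54 (Cd59a), with adjusted p of 0.543, 0.533, 0.900 and 0.490. The single 100 bp libraries, with no replicate and so no test, gave C1qb 36.7 FPKM (exact 95% Poisson interval 31.5 to 42.6) with PBS and 15.9 FPKM (12.7 to 19.6) with clodronate, C3ar1 3.04 FPKM and 0.653 FPKM, and C4b 0.471 FPKM (0.250 to 0.807) and 1.23 FPKM (0.867 to 1.68). Such intervals cover counting error only. C1qb and C3ar1 were lower and C4b higher with clodronate in that pair too. C1qa was at 7.35 FPKM (5.15 to 10.2) with PBS and 4.70 FPKM (3.07 to 6.88) with clodronate, and C1qc, unlike in the replicated libraries, was not lower with clodronate, at 3.58 FPKM (2.08 to 5.73) against 4.28 FPKM (2.71 to 6.43), with intervals that overlap for both chains.

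**Figure D2:**
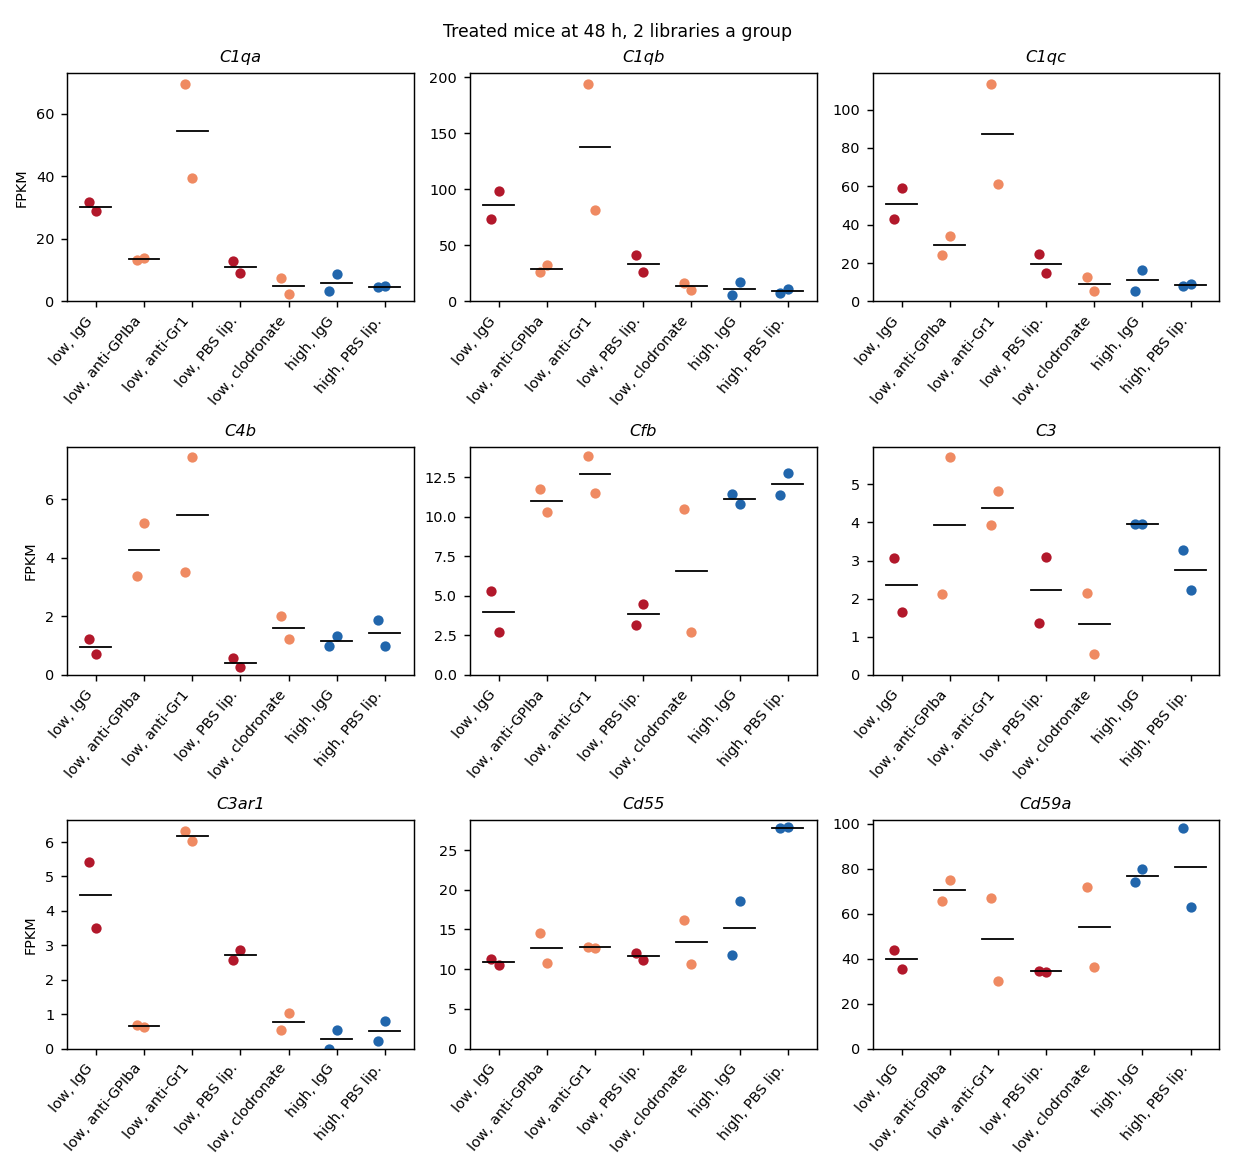
Level of each complement gene (y axis, FPKM from 0) in the 2 libraries (points) of each treated group at 48 h, with lines at the means. C1qb lies at 73.4 and 98.8 FPKM at low flow with IgG and at 25.9 and 32.8 FPKM with anti-GPIba, while C4b lies at 1.22 and 0.710 against 3.39 and 5.17 FPKM.

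At 7 d the question was whether endothelial Rbfox2 changes the intima's response. EC-KO against control at low flow gave 0 called genes of the 9, as for 0% of all 13352 genes by edgeR. Of the 9 genes 3 had an unadjusted p under 0.05, 880 of all genes did, and DESeq2 called 0 of the 9 (0.0994% of all genes). C1qb was at 64.6, 94.8 and 8.45 FPKM in control and 179, 223 and 152 FPKM in EC-KO libraries (log2 1.77 ± 0.77, SE, adjusted p = 0.692). Every EC-KO library was above every control library, while control library c was far below the other controls. Each of 3 sequencing runs held 1 low-flow library of each genotype, and C1qb was at 64.6 against 179, 94.8 against 152 and 8.45 against 223 FPKM within them, with control library c in the last. With the run as a term in the fit, an alternative added after seeing the data, the log2 fold change was 2.15 (adjusted p = 0.453).

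C1qa was at 34.1, 48.9 and 4.13 FPKM in control and 78.6, 97.5 and 71.4 FPKM in EC-KO libraries (log2 1.55 ± 0.71, SE), and C1qc at 49.6, 64.4 and 3.62 against 149, 169 and 111 FPKM (log2 1.91 ± 0.81, SE). Both had the order of C1qb, with no overlap and control library c lowest. C3ar1 was at 1.83, 4.23 and 0.630 against 5.27, 6.86 and 5.90 FPKM (log2 1.47 ± 0.61, SE), again without overlap. The adjusted p was 0.692 for each of these 3. Across all genes 7.842% had groups that did not overlap in this comparison, and 0% were called.

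The macrophage markers held 0.0413%, 0.191% and 0.0426% of counts in control libraries a, b and c and 0.0924%, 0.185% and 0.128% in EC-KO libraries, and none of 14 was called. The fibroblast markers held 0.108%, 0.0492% and 0.0449% in control against 0.104%, 0.349% and 0.113% in EC-KO libraries (6 of 7 log2 differences positive, none called) and the neutrophil markers 0.00206%, 0.0390% and 0.00235% against 0.000891%, 0.00389% and 0.000850% (0 of 8 positive, none called). The part of these shares in the values of the 9 genes was not tested. C4b (7.85, 2.92 and 1.97 against 6.20, 14.3 and 4.43 FPKM), C3 (11.8, 7.27 and 5.67 against 2.45, 7.04 and 7.21), Cfb (22.8, 6.10 and 7.35 against 14.0, 11.2 and 7.32), Cd55 (12.4, 9.85 and 15.7 against 18.5, 14.2 and 20.1) and Cd59a (58.8, 20.5 and 26.2 against 38.7, 52.8 and 40.7) overlapped between genotypes. Leaving out control library a brought 1 call, of Cd59a, beside 11.1% of all genes (0.93, adjusted p = 0.0493).

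At high flow EC-KO against control gave 0 called genes of the 9 by edgeR, against 0.00749% of all genes, with 0 of the 9 and 293 of all genes at an unadjusted p under 0.05 and 0 of the 9 by DESeq2 (0.18% of all genes). C1qb was at 5.48 and 0.484 FPKM in control and 10.2 and 7.22 FPKM in EC-KO libraries (log2 1.47 ± 1.01, SE), with both EC-KO libraries higher, where 38.21% of genes did not overlap. C3ar1 was at 0.0654 and 0.0214 against 0.137 and 0.268 FPKM (log2 2.09 ± 0.96, SE), which rests on few counts. The log2 differences of the others were 1.08 for C1qa, 1.04 for C1qc, 1.23 for C4b, 0.67 for C3, 0.10 for Cfb, 0.04 for Cd55 and −0.07 for Cd59a, and the adjusted p was 1 for all 9. The test of whether the flow response itself differed between genotypes called 0 of the 9 genes (0% of all genes, with 0 of the 9 and 538 of all genes at an unadjusted p under 0.05, and 0 of the 9 by DESeq2, which called 0.13% of all genes). The interaction was 0.47 ± 1.17 for C1qa, 0.30 ± 1.26 for C1qb, 0.88 ± 1.31 for C1qc, −1.20 ± 0.77 for C3, −0.20 ± 0.98 for C4b, −0.21 ± 0.74 for Cfb, 0.45 ± 0.44 for Cd55, 0.43 ± 0.57 for Cd59a and −0.63 ± 1.08 for C3ar1 on the log2 scale (SE), so differences of several fold between genotypes could have gone undetected.

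Low against high flow at 7 d called C3ar1 alone of the 9 genes in control mice, against 2.4% of all genes (0.959% higher and 1.44% lower), and again alone in EC-KO mice, against 1.09% (0.352% higher and 0.741% lower). At an unadjusted p under 0.05 it was 7 of the 9 genes in control and 5 in EC-KO mice, beside 3332 and 2099 of all genes. In control mice C3ar1 stood at 1.83, 4.23 and 0.630 FPKM at low and 0.0654 and 0.0214 FPKM at high flow (log2 5.48 ± 0.95, SE, adjusted p = 0.0273), and in EC-KO mice at 5.27, 6.86 and 5.90 against 0.137 and 0.268 FPKM (log2 4.85 ± 0.86, SE, adjusted p = 0.0305). The control call was lost without high-flow library a or b (adjusted p = 0.164 and 0.280), and the EC-KO call without any single one of its 5 libraries, namely high-flow a or b (0.337 and 0.210) or low-flow a, b or c (0.0797, 0.114 and 0.0917).

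The C1q chains had the next largest differences and missed the threshold. At high flow C1qa stood at 3.19 and 0.758 FPKM in control and 5.53 and 3.26 FPKM in EC-KO libraries, and C1qc at 5.67 and 1.17 against 10.4 and 4.40 FPKM, all below the low-flow libraries of the same genotype but for C1qc in low-flow control library c. In control mice the log2 fold changes were 3.76 ± 0.95 for C1qa (adjusted p = 0.0594), 4.10 ± 1.04 for C1qb (adjusted p = 0.0599) and 3.40 ± 1.05 for C1qc (adjusted p = 0.0875). In EC-KO mice they were 4.23 ± 0.95 (adjusted p = 0.0684), 4.40 ± 1.03 (adjusted p = 0.0787) and 4.28 ± 1.08 (adjusted p = 0.0985). DESeq2, which called 13.8% of all genes in control and 6% in EC-KO mice, called all 3 chains in both genotypes (adjusted p = 6.58e-05, 0.00194 and 0.00117 in control mice and 4.07e-06, 0.00136 and 3.24e-05 in EC-KO mice). Without low-flow control library a, C1qa, C1qb and Cd59a were called beside C3ar1 (29.4% of all genes, adjusted p = 0.0221, 0.0209 and 0.00281), and C1qa also without library c (0.255% of all genes, 0.0308). All high-flow libraries at 7 d and 1 low-flow library of each genotype (control b and EC-KO c) came from 1 run, and within it C1qb stood at 94.8 FPKM at low and 5.48 and 0.484 FPKM at high flow in control mice, and at 152 against 10.2 and 7.22 FPKM in EC-KO mice. With the run as a term, which called 16.7% of all genes in control and 3.98% in EC-KO mice, C1qa, C1qb, Cd59a and C3ar1 were called in control mice (adjusted p = 0.0353, 0.0371, 0.0461 and 0.0131) and C3ar1 alone in EC-KO mice (0.0244).

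In control mice the macrophage markers held 0.0413% to 0.191% of counts at low and 0.0153% to 0.0207% at high flow (2 of 14 rose), and 0.0924% to 0.185% against 0.0141% to 0.0152% in EC-KO mice (1 of 14 rose). The endothelial markers held 0.536% to 1.13% against 1.65% to 1.74% and 0.796% to 0.981% against 1.79% to 1.85%, with 3 of 11 falling and 1 rising in each genotype. In each, 1 of 7 smooth muscle markers rose and the hepatocyte marker fell, and 1 of 7 fibroblast markers rose in EC-KO mice. The part of these shares in the values of C3ar1, the C1q chains and Cd59a was not tested.

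C3 and C4b were not called by flow at 7 d by edgeR. C3 was at 11.8, 7.27 and 5.67 FPKM at low flow and 2.26 and 3.26 FPKM at high flow in control mice (log2 1.48 ± 0.57, SE, adjusted p = 0.143). C4b was at 7.85, 2.92 and 1.97 against 1.72 and 0.508 FPKM (log2 1.83 ± 0.75, SE, adjusted p = 0.162). DESeq2 called both in control mice (13.8% of all genes, adjusted p = 0.0478 and 0.0486). In EC-KO mice the log2 differences were 0.28 ± 0.54 (adjusted p = 0.846) for C3 and 1.63 ± 0.73 (adjusted p = 0.317) for C4b. In control mice all low-flow libraries were above all high-flow libraries for both genes (39.84% of genes did not overlap), whereas at 48 h the C4b means were lower at low flow in untreated, IgG and PBS-liposome mice.

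Cd55 did not separate the flows at 7 d, at 12.4, 9.85 and 15.7 against 15.3 and 15.1 FPKM in control mice (log2 −0.35 ± 0.31, SE) and 18.5, 14.2 and 20.1 against 11.7 and 20.4 FPKM in EC-KO mice (log2 0.10 ± 0.31, SE). Cfb likewise overlapped, with −0.13 ± 0.52 and −0.34 ± 0.52. Cd59a had 58.8, 20.5 and 26.2 against 72.6 and 69.2 FPKM in control mice (log2 −1.11 ± 0.40, SE, adjusted p = 0.124), each low-flow library being below each high-flow library, and 38.7, 52.8 and 40.7 against 54.3 and 84.6 FPKM in EC-KO mice (log2 −0.67 ± 0.40, SE, adjusted p = 0.446). Strain background, age, sex and, for the untreated pools, run and read length differ between 48 h and 7 d, so values at these times stand side by side without a test. Treated 48 h libraries shared runs with some at 7 d, though low-flow libraries at 7 d also came from other runs.

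**Figure D3:**
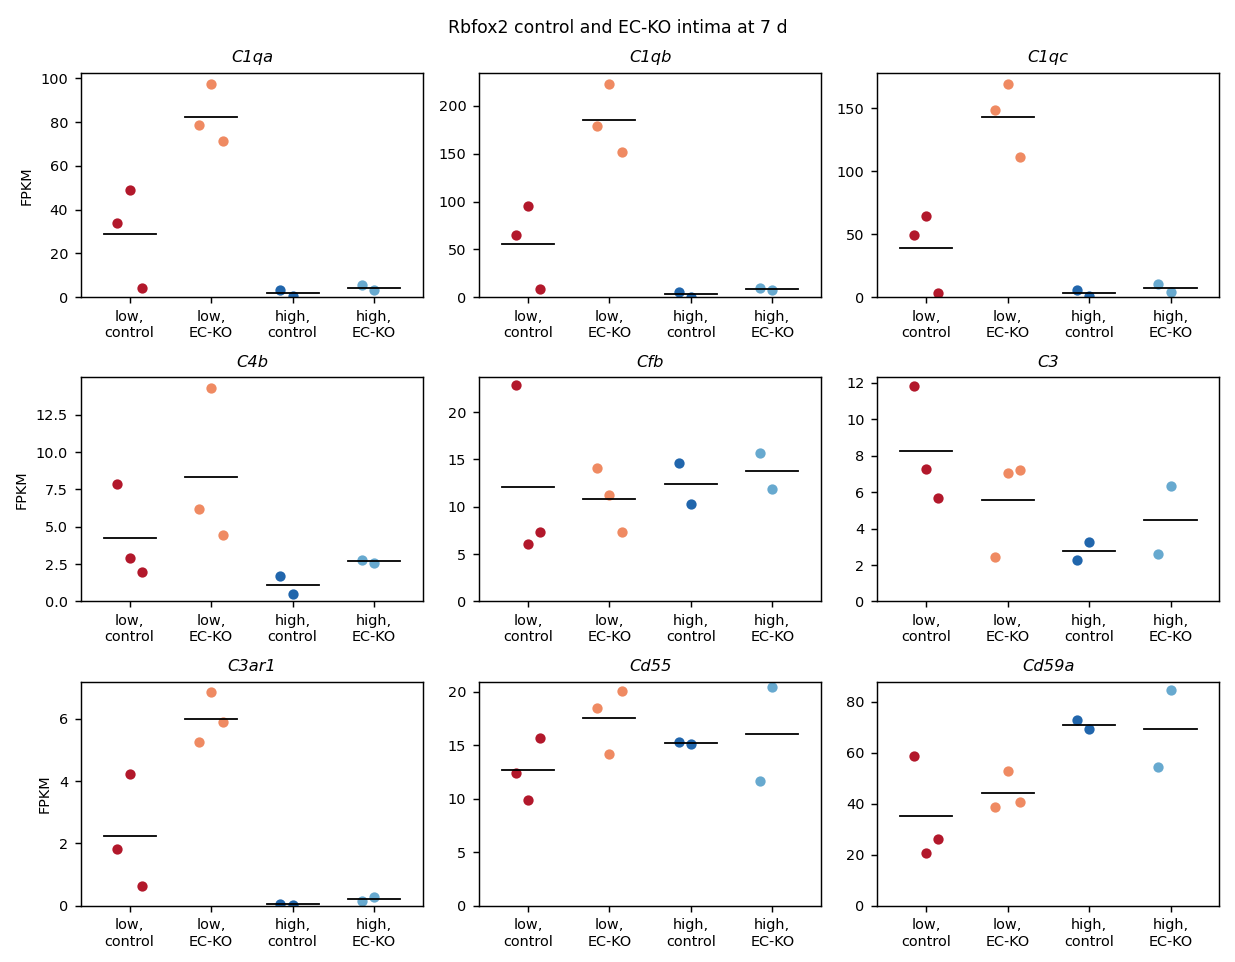
Level of each complement gene at 7 d (y axis, FPKM from 0) in low-flow and high-flow intima of Rbfox2 control and EC-KO mice, with a point for each library and lines at the means. For C1qb the 3 low-flow EC-KO libraries lie at 179, 223 and 152 FPKM, above the 3 low-flow control libraries at 64.6, 94.8 and 8.45 FPKM, and all high-flow libraries lie at 10.2 FPKM or below.

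**Figure D4:**
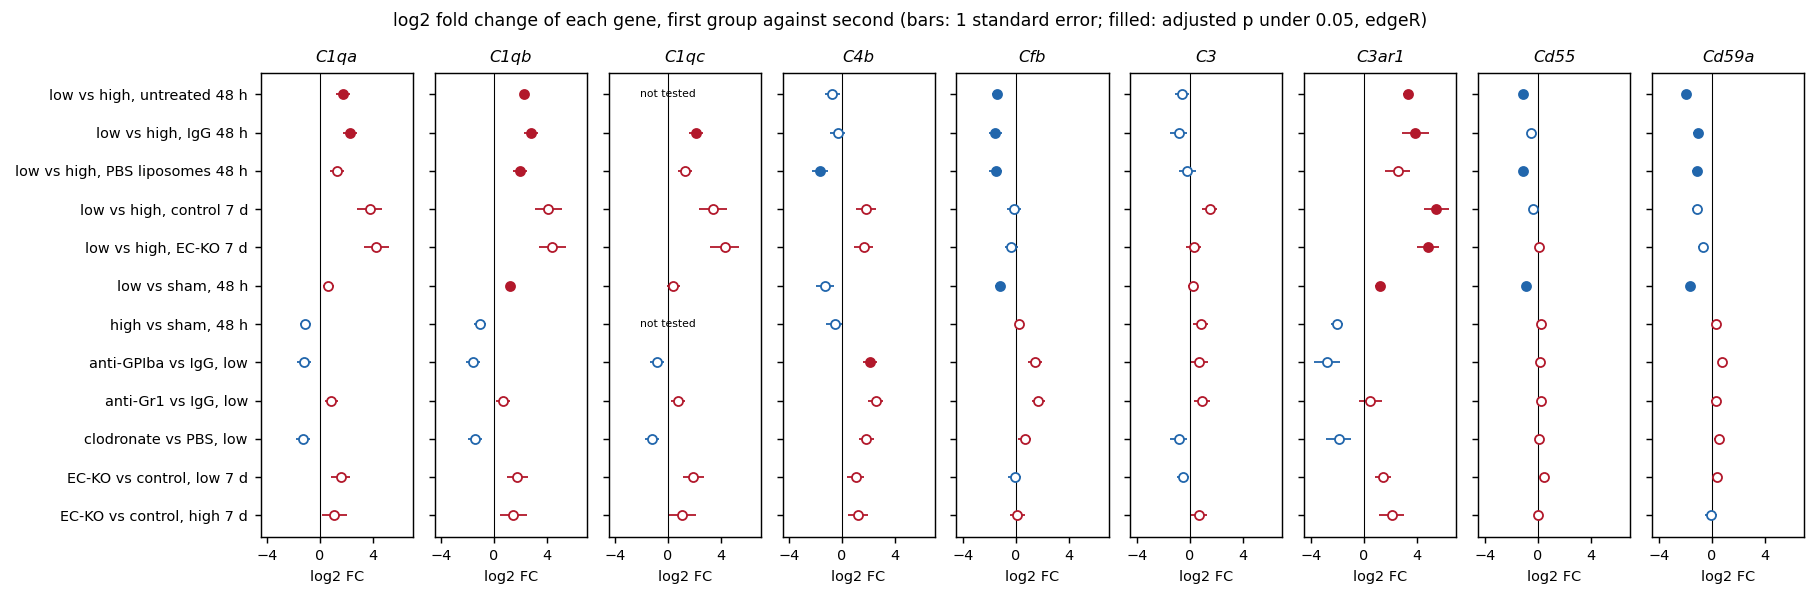
The log2 fold change of each complement gene (x axis) in each comparison (rows), first group minus second, with bars of 1 standard error and filled points where the adjusted p was under 0.05 by edgeR. Red is positive and blue negative. C3ar1 and C1qb are to the right in every row of low against high flow, and Cd59a is to the left in each of these.

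Read across the 5 comparisons of low with high flow, C1qa, C1qb and C3ar1 had positive log2 fold changes and Cd59a and Cfb negative ones in each. The Cfb differences at 7 d were smaller than their standard errors, with groups that overlapped. In 7 d controls the sign of Cfb also turned when a library was left out. For C1qb the log2 fold changes were 2.28 untreated, 2.82 with IgG, 1.99 with PBS liposomes, 4.10 in 7 d controls and 4.40 in 7 d EC-KO mice. For Cd59a they were −1.94, −1.04, −1.12, −1.11 and −0.67. The first 3 of each passed the threshold, and the difference between times was not tested. At high flow at 48 h the Cd59a mean was 199 FPKM in untreated pools, 77.0 FPKM with IgG and 80.6 FPKM with PBS liposomes. At low flow it was 35.6, 39.7 and 34.3 FPKM in the same order. Untreated and treated libraries also differ in read length and run, and the part of these in the Cd59a fold changes was not tested.

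The proportion of the C1q chains differed with the library type. In the 11 intimal libraries with 80 or 100 bp reads the ratio of C1qb to C1qc FPKM had a median of 10.6 (3.71 to 25.0), and in the 24 with 150 bp reads 1.31 (0.413 to 2.33). The ratio of C1qb to C1qa had medians of 4.42 (2.82 to 12.3) and 2.16 (0.639 to 4.28). The ranges of the first ratio do not overlap. The short-read libraries are the untreated pools and the single liposome libraries. Low-flow PBS-liposome mice stand in both sets, with a ratio of 10.3 in the 100 bp library and 1.66 and 1.77 in the others, as do clodronate mice, with 3.71 against a mean of 1.61 ± 0.484 (SD, n = 2). Reads trimmed to 100 bp were also deposited for 10 low-flow libraries of 150 bp, and there the ratio of C1qb to C1qc counts was 0.929 to 2.32 after trimming and 0.966 to 1.97 before. The cause of the difference between the sets was not tested. C1qc levels are not compared between the sets.

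In the cell line, with 1 library a culture and no test, C1q was near the floor without added cells. C1qa had 0 counts in the untreated line (a floor of 3 counts is 0.218 FPKM), and 0.153 FPKM with plasma (exact 95% Poisson interval 0.0185 to 0.551). With platelets and macrophages it was 1.67 FPKM (1.05 to 2.53) and with all of these 0.845 FPKM (0.450 to 1.45).

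C1qb was 0.0744 FPKM (0.00188 to 0.414) in the untreated line and 7.29 FPKM (5.89 to 8.93) with platelets and macrophages. C3 was 1.07 FPKM (0.843 to 1.33) untreated, 0.588 FPKM (0.422 to 0.798) after plasma, 5.85 FPKM (5.30 to 6.44) after platelets plus macrophages and 5.44 FPKM (4.95 to 5.97) after the 3 together. For C1qb and C3 the cultures with added cells stood above those without, beyond counting error. The macrophage markers held 0.00615% of counts untreated, 0.00872% after plasma, 0.0452% after platelets plus macrophages and 0.0329% after the 3 together, and their part in these differences was not tested.

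C3ar1 was 0.525 FPKM (0.359 to 0.741) in the untreated line and 2.93 FPKM (2.50 to 3.40) with plasma alone, a difference beyond counting error in cultures with no added cells. It was 4.51 FPKM after platelets plus macrophages and 4.46 FPKM after the 3 together. Cd55 was 34.5 FPKM untreated, 28.9 after plasma, 42.5 after platelets plus macrophages and 15.9 after the 3 together, and Cd59a was 41.5, 35.6, 33.9 and 19.5 FPKM. Both were lowest where plasma, platelets and macrophages were combined. C4b stayed between 0.779 and 1.36 FPKM, and Cfb between 0.131 and 0.466 FPKM, below its level in every intimal library.

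In primary endothelium Cd55 was 59.1 FPKM (56.5 to 61.7) in control and 61.0 FPKM (57.9 to 64.3) in EC-KO cells, above its highest intimal level of 27.9 FPKM, and 20.4 FPKM in the eGFP+ cells. Cd59a was 26.9, 31.4 and 50.2 FPKM in the same order. The C1q chains were present in the control culture (3.22, 8.01 and 8.83 FPKM for C1qa, C1qb and C1qc) and had 0, 0 and 1 counts in the EC-KO culture and 0 in the eGFP+ culture, where 3 counts of C1qb would be 0.329 and 0.655 FPKM.

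C3ar1 was at 1.90 FPKM (1.57 to 2.28) in control and 0.0485 FPKM (0.00587 to 0.175) in EC-KO cells, and at 0.386 FPKM (0.167 to 0.760) in the eGFP+ cells, where no C1q chain was counted. The macrophage markers held 0.0493% of counts in the control, 0.0173% in the EC-KO and 0.00758% in the eGFP+ culture, with 4, 9 and 8 of the 14 at 0 in the same order. The control and EC-KO cells had been sorted as CD31+ and Icam2+, and the part of this share in the C1q difference was not tested. C3 was 1.47 FPKM (1.21 to 1.78) in control and 2.79 FPKM (2.34 to 3.29) in EC-KO cells, and C4b 1.23 and 1.63 FPKM. These are single cultures, so their differences have no replicate check. The eGFP+ library also differed from the others in donor genotype, days in culture, read length and run.

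**Figure D5:**
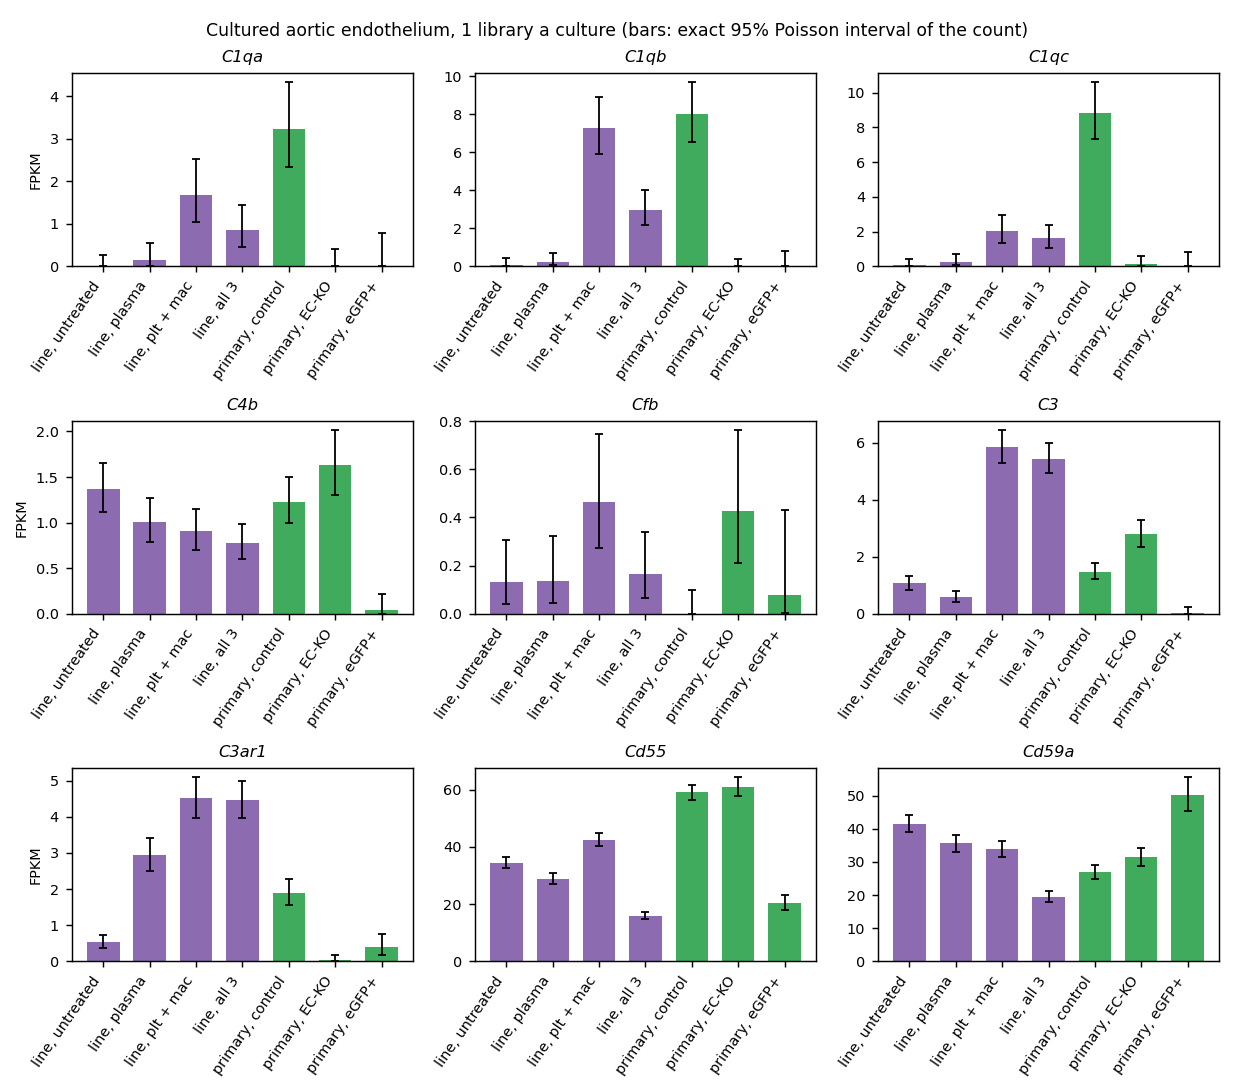
Level of each complement gene (y axis, FPKM from 0) in the 4 cultures of the aortic endothelial line (plt + mac, platelets and macrophages, all 3, these with plasma) and the 3 primary cultures, 1 library each, with bars of the exact 95% Poisson interval of the count. C1qb is 0.0744 FPKM in the untreated line and 7.29 FPKM with platelets and macrophages, and Cd55 is highest in the primary control and EC-KO cultures.

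Of 45 other complement genes listed, 44 were in the table, and at low against high flow in untreated mice 19 could be tested, of which 8 rose and 4 fell (46.2% of all genes were called). Among receptors 6 of 7 tested rose. Itgb2 and Itgam, the chains of complement receptor 3, rose by 5.56 and 5.18 on the log2 scale (adjusted p = 5.21e-06 and 9.02e-06), Itgax by 5.35 and C5ar1, the C5a receptor, by 4.73 (mean 33.0 against 2.05 FPKM). Gpr77 (C5ar2) rose by 2.29 and C1qbp by 1.15. Beside them 11 of 13 macrophage and 7 of 7 neutrophil markers rose, and their part in the receptors' values was not tested.

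In the alternative pathway Cfp (properdin, which stabilises the C3-cleaving enzyme) rose by 4.01 on the log2 scale, from a mean of 5.31 to 53.1 FPKM, and Cfd (factor D, abundant in fat) changed by −4.45, from 283 to 8.35 FPKM, beside fat cell markers at 0.0290% to 0.291% of counts at high flow and 0.00298% to 0.00703% at low flow. C1ra, a C1 protease, changed by −1.67, the membrane collectin Colec12 by −0.76 and the C1 inhibitor Serping1 by −2.02, and Cfi (factor I) rose by 1.49. No classical or lectin gene of the 5 tested rose, and none of the 6 terminal genes passed the filter on low counts.

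Against sham 7 of 19 other complement genes rose and 4 fell (20.6% and 19.7% of all genes), and between high flow and sham 0 of 18 were called by edgeR (0% of all genes). With anti-GPIba 7 of 25 rose and 7 fell (6.05% and 10.5% of all genes). The largest falls with counts in both groups were in receptors, Itgam (−5.70 on the log2 scale), Itgax (−3.99), Itgb2 (−3.94) and C5ar1 (−3.77). Named here after its values were seen, Serping1, the inhibitor of C1r and C1s, rose from 42.7 to 171 FPKM (log2 1.98, adjusted p = 0.0317). Clodronate lowered C5ar1 (−3.49) and Itgb2 (−2.99) of 25 tested, with 0.119% of all genes called. With anti-Gr1 0 of 25 were called. At 7 d Itgax alone of 24 was called, at low against high flow in EC-KO mice (1.09% of all genes, log2 7.74, adjusted p = 0.0444).

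By the smallest root mean square distance between centred log2(FPKM + 1) profiles over the 35 intimal libraries, among 11365 genes with a mean of at least 1 FPKM, the genes nearest C1qa were C1qb (0.622), Ms4a7 (0.675) and Ctsc (0.718), and those nearest C1qb were C1qa, Ms4a7 (0.646) and Cd72 (0.717). C1qc was nearest C1qa (0.845), then B4galnt1 (1.14) and Cx3cl1 (1.16). C3ar1 was nearest Clec12a (0.412), Fcgr1 (0.414), which is 1 of the 14 macrophage markers, and Clec4a2 (0.435). Cd59a was nearest Dhrs7 (0.262), Rnase4 (0.311) and Ptplad2 (0.315), Cd55 nearest Cept1 (0.230), Vps24 (0.262) and Fbxo3 (0.270), and Cfb nearest Nub1 (0.319), Inpp5k (0.340) and Gsn (0.343). C3 was nearest Tbc1d5 (0.490), Olfml2b (0.492) and Klraq1 (0.498), and C4b nearest Ltbp1 (0.465), Enpp2 (0.471) and Nid2 (0.483). These distances are descriptive, they mix conditions, runs and read lengths, and a gene that varies little has small distances to many genes.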

How the data were processed

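Mouse RNA-seq of carotid intima and cultured endothelium was used at the gene level. The authors deposited expected counts per gene from RSEM 1.2.15 (reads mapped with STAR 2.5.1b per the submitters' processing notes, while the study's methods give another mapper for the untreated pools; mm9 RefSeq models, libraries not pooled). In a library 4.70% to 19.3% of the values were not whole, and counts were rounded for tests. Of 204 value columns 149 were not used (other units, other samples, second runs), and 1 row was left out for lack of values. FPKM was computed here from these counts, the table's effective lengths and library totals.

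Comparisons used edgeR 4.0.16 (quasi-likelihood test, filterByExpr, TMM, Benjamini-Hochberg over all genes tested, threshold 0.05) in R 4.3.3. The untreated groups were fitted in pairs, the 7 treated groups together and the 4 groups at 7 d together. DESeq2 1.42.0, RLE scaling, no filter, a replicate block, fits of 2 groups, each library left out and, added after seeing the data, library totals, trimmed reads and the sequencing run as a term were the alternatives. Cultures were read with exact 95% Poisson intervals and a floor of 3 counts, which cover counting error only. Python 3.11.15 with pandas 2.3.3, numpy 2.4.6 and scipy 1.17.1 did the rest, and the fits were tested on simulated data.

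The members, the 45 other complement genes and the marker lists were chosen with earlier results of these data known. All members tested are named in each comparison, other complement genes where they were called without overlap (12 of the largest for low against high flow in untreated mice, up to 4 elsewhere), and 3 nearest profiles for each member. At 7 d low-flow EC-KO and control libraries shared column numbers, and same-numbered libraries deviated together (correlations 0.541, 0.182 and 0.427 over genes), so they were treated as pairs in an alternative fit.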

Additional observations from a re-analysis of the deposited data

Results flagged for a closer look

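C3 and C4b had log2 fold changes of opposite sign by flow in different sets of mice, with the low-flow and high-flow libraries not overlapping in each. C3 had a log2 fold change of −0.84 for low against high flow in IgG mice at 48 h (adjusted p = 0.305) and 1.48 in control mice at 7 d (adjusted p = 0.143). C4b had −1.67 in PBS-liposome mice at 48 h, 1.83 in control mice at 7 d and 1.63 in EC-KO mice at 7 d. The C4b change with PBS liposomes was the only one of these past the threshold by edgeR, while DESeq2 also called C3 and C4b in 7 d controls (adjusted p = 0.0478 and 0.0486). Groups did not overlap for 74.07% of all genes with IgG, 75.15% with PBS liposomes, 39.84% in 7 d controls and 43.63% in 7 d EC-KO mice, and the differences between the sets were not tested. Time, age and strain background differ between the sets and cannot be told apart. The low-flow libraries at 7 d came from more sequencing runs than those at 48 h, some of them shared.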

How the results depend on the processing

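Among fits of 1 gene under 1 alternative, 1199 gave the same direction and side of the threshold as the main analysis, 71 gained a call, 50 lost one and 52 turned the sign. RLE scaling moved no count of called members by over 1.5 times. At the depth of the untreated pools C1qc, with 2 to 9 counts in the high-flow pools, could not be tested against high flow, and groups held 2 or 3 libraries. The causes of the moves below were not tested. With DESeq2 in place of edgeR, the members called were 1 for high flow against sham, 4 for anti-GPIba against IgG, 2 for anti-Gr1 against IgG, 1 for clodronate against PBS liposomes, 3 for anti-GPIba against anti-Gr1, 8 for flow with PBS liposomes, 6 for flow in 7 d controls and 4 for flow in 7 d EC-KO mice (in place of 0, 1, 0, 0, 0, 5, 1 and 1), where 0.585, 22.1, 1.07, 2.8, 2.11, 32.9, 13.8 and 6% of all genes were called. With no filter on low counts, the members called were 1 for high flow against sham, 4 for anti-GPIba against IgG, 3 for flow in 7 d controls and 3 for flow in 7 d EC-KO mice (in place of 0, 1, 1 and 1), where 0.348, 15.2, 4.06 and 1.37% of all genes were called. With a fit of the 2 groups alone, the members called were 6 for anti-GPIba against IgG, 1 for anti-Gr1 against IgG, 1 for anti-GPIba against anti-Gr1, 0 for flow in 7 d controls and 4 for flow in 7 d EC-KO mice (in place of 1, 0, 0, 1 and 1), where 34.5, 1.76, 0.557, 0.0234 and 6.61% of all genes were called. With reads trimmed to 100 bp, over the 5 treated low-flow groups (added after seeing the data), the members called were 3 for anti-GPIba against IgG and 1 for anti-GPIba against anti-Gr1 (in place of 1 and 0), where 13 and 0.391% of all genes were called. With the 7 d low-flow libraries numbered 1 left out (added after seeing the data), the members called were 4 for flow in 7 d controls and 3 for flow in 7 d EC-KO mice (in place of 1 and 1), where 29.2 and 8.36% of all genes were called. There the sign turned for C3 in EC-KO against control at low flow (0.15), Cfb in EC-KO against control at low flow (0.48), C4b in flow by genotype (0.75) and Cfb in flow by genotype (0.38). With the sequencing run as a term at 7 d (added after seeing the data), the members called were 4 for flow in 7 d controls (in place of 1), where 16.7% of all genes were called. There the sign turned for Cfb in EC-KO against control at low flow (0.083). With library totals in place of TMM the sign turned for C1qc in low flow against sham (−0.15) and C3 in low flow against sham (−0.39), since the TMM factors differ between the groups. With the replicate number as a block, the members called were 4 for anti-GPIba against IgG, 5 for flow in 7 d controls and 4 for flow in 7 d EC-KO mice, where 24.7, 22 and 9.86% of all genes were called, and the sign turned for Cfb in EC-KO against control at low flow (0.070) and Cd55 in EC-KO against control at high flow (−0.032). Leaving out 1 library at a time, the number called ran from 2 to 5 for low flow against sham (21.9% to 41.8% of all genes), 0 to 0 for anti-GPIba against IgG (0.00719% to 0.638% of all genes), 2 to 5 for flow with IgG (15.3% to 30.4% of all genes), 0 to 4 for flow with PBS liposomes (10.7% to 27.4% of all genes), 0 to 1 for EC-KO against control at low flow (0% to 11.1% of all genes), 0 to 4 for flow in 7 d controls (0.0216% to 29.4% of all genes) and 0 to 0 for flow in 7 d EC-KO mice (0.00724% to 0.113% of all genes). For low against high flow at 48 h, C3 ran from −0.96 to 0.19. For low flow against sham, C1qc ran from −0.18 to 0.84 and C3 ran from −0.024 to 0.77. For high flow against sham, Cfb ran from −0.019 to 0.55 and C4b ran from −1.10 to 0.30. For anti-GPIba against IgG, Cd55 ran from −0.059 to 0.38 and C3 ran from −0.18 to 1.26. For anti-Gr1 against IgG, C1qb ran from −0.0100 to 1.13 and Cd59a ran from −0.32 to 0.72. For clodronate against PBS liposomes, Cfb ran from −0.57 to 1.34 and Cd55 ran from −0.21 to 0.36. For anti-GPIba against anti-Gr1, C3 ran from −1.10 to 0.34, Cd55 ran from −0.29 to 0.14 and C4b ran from −0.89 to 0.29. For flow with IgG, C4b ran from −0.75 to 0.0035. For flow with PBS liposomes, C3 ran from −0.89 to 0.27. For EC-KO against control at low flow, Cfb ran from −0.43 to 0.71. For EC-KO against control at high flow, Cfb ran from −0.11 to 0.35, Cd59a ran from −0.47 to 0.27, C3 ran from −0.17 to 1.21 and Cd55 ran from −0.46 to 0.43. For flow in 7 d controls, Cfb ran from −0.95 to 0.18. For flow in 7 d EC-KO mice, C3 ran from −0.27 to 1.11 and Cd55 ran from −0.30 to 0.61. For flow by genotype, C1qa ran from −0.89 to 1.12, C1qb ran from −2.30 to 1.13, C1qc ran from −0.65 to 1.57, C4b ran from −1.30 to 0.57, Cfb ran from −0.54 to 0.61 and C3ar1 ran from −1.61 to 0.21. With the 7 d EC-KO and control libraries at low flow paired by number, 0 members were called, as without the pairing. The other shared numbers, in treated mice and between the flows at 7 d, mark no stated animal or day, and same-numbered deviations correlated at −0.042 to 0.527, so the block there is only a variant. No paired analysis was possible because of missing replicate numbers for the untreated 48 h pools, whose columns carry letters. Summing both sequencing runs of each untreated pool was planned and not run. The pool letters are not tied to single labelled samples, although the columns of a pool are described as technical replicates.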

Other observations

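Clusterin (Clu), a soluble inhibitor of the membrane attack complex named here after its values were seen, had the highest group mean FPKM among the complement genes in every intimal group. It was at 5359 FPKM in untreated low-flow arteries, 8068 FPKM at high flow and 8213 FPKM in sham arteries. These means use library totals, which in place of TMM moved the median log2 fold change of all genes by −0.62 for low against high flow. Clu was not among the 8 other complement genes called higher or the 4 called lower in that comparison.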
